A study of Mus musculus with 10 samples.

Results

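Genes of the ubiquitin-specific protease (Usp) family were followed in mouse eggs that wait in metaphase of meiosis II (MII oocytes), to ask whether their transcripts differ between the meiotic spindle and the rest of the egg. Members were all genes whose symbol on the array platform is Usp followed by a number, which gave 51 of the 18193 genes that have a probe set listed with that gene alone. Each gene was read from 1 probe set, the one with the highest mean log2 intensity over all arrays. Of the 51, Usp6nl encodes a GTPase-activating protein for a Rab GTPase and no protease, and Usp46os2 is a non-coding transcript. They were kept because the rule takes them in.

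The study compared 3 kinds of sample, all made from in vivo matured oocytes of female B6D2F1 mice. Their ovulation was induced with eCG (equine chorionic gonadotropin) and, after 48 h, 5 IU of hCG (the human hormone), and hyaluronidase took off the cumulus cells. The spindle-chromosome complex (SCC, 3 arrays) is the spindle with its chromosomes, removed from the oocyte by microsurgery. The cytoplast (4 arrays) is the enucleated remainder, and the intact MII oocyte (3 arrays) holds both. How many oocytes or mice went into an array is not given in the labels, and the few arrays limit the precision: a p-value here speaks only of array-to-array spread.

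Proteins are marked by chains of ubiquitin, and Usp enzymes, the largest family of deubiquitinases, cut these chains with a catalytic cysteine. They rescue substrates from the proteasome, edit signals on histones and DNA repair proteins, and recycle ubiquitin. A mature oocyte is transcriptionally silent, and its progress through meiosis and the later clearance of maternal proteins depend on ubiquitin, so the store of maternal Usp transcripts is part of what the egg hands on.

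Array medians lay between 15.6 and 16.6 intensity units, and the 95th percentile lay between 623 and 797 on SCC arrays, 526 and 634 on cytoplast arrays and 568 and 711 on MII oocyte arrays. Of 12 oocyte markers with a probe set, 10 were above background on all arrays and Khdc3 on none. Of these markers 1 was higher in the SCC and none lower when set against the cytoplast, with a median log2 difference of 0.35. Of all 12710 genes tested 8.03% were higher. The median was 0.024 over these genes and 0.26 over the 3547 above background on all arrays. Background on an array was taken as the 95th percentile of 38 genes of other tissues (97.1 to 156). Of 12 cumulus and granulosa cell markers, 11 were above it on no array and Kitl on 5 of 10, and the summed intensity of the 12 was 443 to 550.04 on SCC arrays, 451 to 459.5 on cytoplast arrays and 425 to 481 on MII oocyte arrays. The beta-actin control probe sets at the 3′ end exceeded those at the 5′ end, a measure of RNA integrity and of the reach of the amplification, by a log2 difference of 3.27 to 3.65 on SCC arrays, 3.66 to 5.29 on cytoplast arrays and 3.33 to 4.42 on MII oocyte arrays. The brightness of an array and this difference moved with the groups, and their part in the results below was not tested.

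23 members were above background on all 10 arrays, 7 on some arrays (Usp16, Usp21, Usp32, Usp33, Usp37, Usp38 and Usp48) and 21 on none. 45 members passed the filter on dim probe sets and were tested. The 6 that did not were Usp11, Usp18 (which removes the ubiquitin-like ISG15), Usp26, Usp44, Usp50 and the Y-linked Usp9y, with intensities from 6.21 to 16.9 on any array. Usp9y cannot be transcribed in a female cell and stood at 14.7 ± 1.91 on SCC arrays, 14.5 ± 1.15 on cytoplast arrays and 14 ± 1.1 on MII oocyte arrays (SD, n = 3, 4 and 3). Intensities of different probe sets are not on 1 scale, so the level of a gene is not compared with that of another, and a dim probe set does not show that a transcript is absent.

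Between the SCC and the cytoplast, 3 of the 45 members tested were higher in the SCC and 1 was lower. Usp7, Usp28 and Usp31 rose by 1.38-fold to 1.49-fold, and Usp8, dim on every array, fell. Since the same amount of labelled RNA went on each array, a higher value is a larger share of the RNA of that sample, and in such bulk samples less material and less transcript per oocyte cannot be told apart. The rises were 6.67% of the members against 8.03% of the 12710 genes tested the same way, and the fall was 2.22% against 0.275%, so the share of rises lay near the background and the share of falls rests on 1 gene. The median log2 difference was 0.061 over the 45 members and 0.024 over all genes tested. The 3 rises passed with the arrays as deposited and not after cyclic loess (adjusted p from 0.0829 to 0.643) or quantile normalization (0.12 to 0.477), with the same sign throughout.

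Arrays of the SCC and the cytoplast did not overlap for 6 members that were higher, Usp7, Usp28, Usp31, Usp34, Usp46 and Usp6nl (13.3% of the 45, against 15.5% of all genes tested). They did not overlap for 2 that were lower, Usp8 and Usp13 (4.44%, against 5.86%). Both shares were close to those of all genes.

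**Figure D1:**
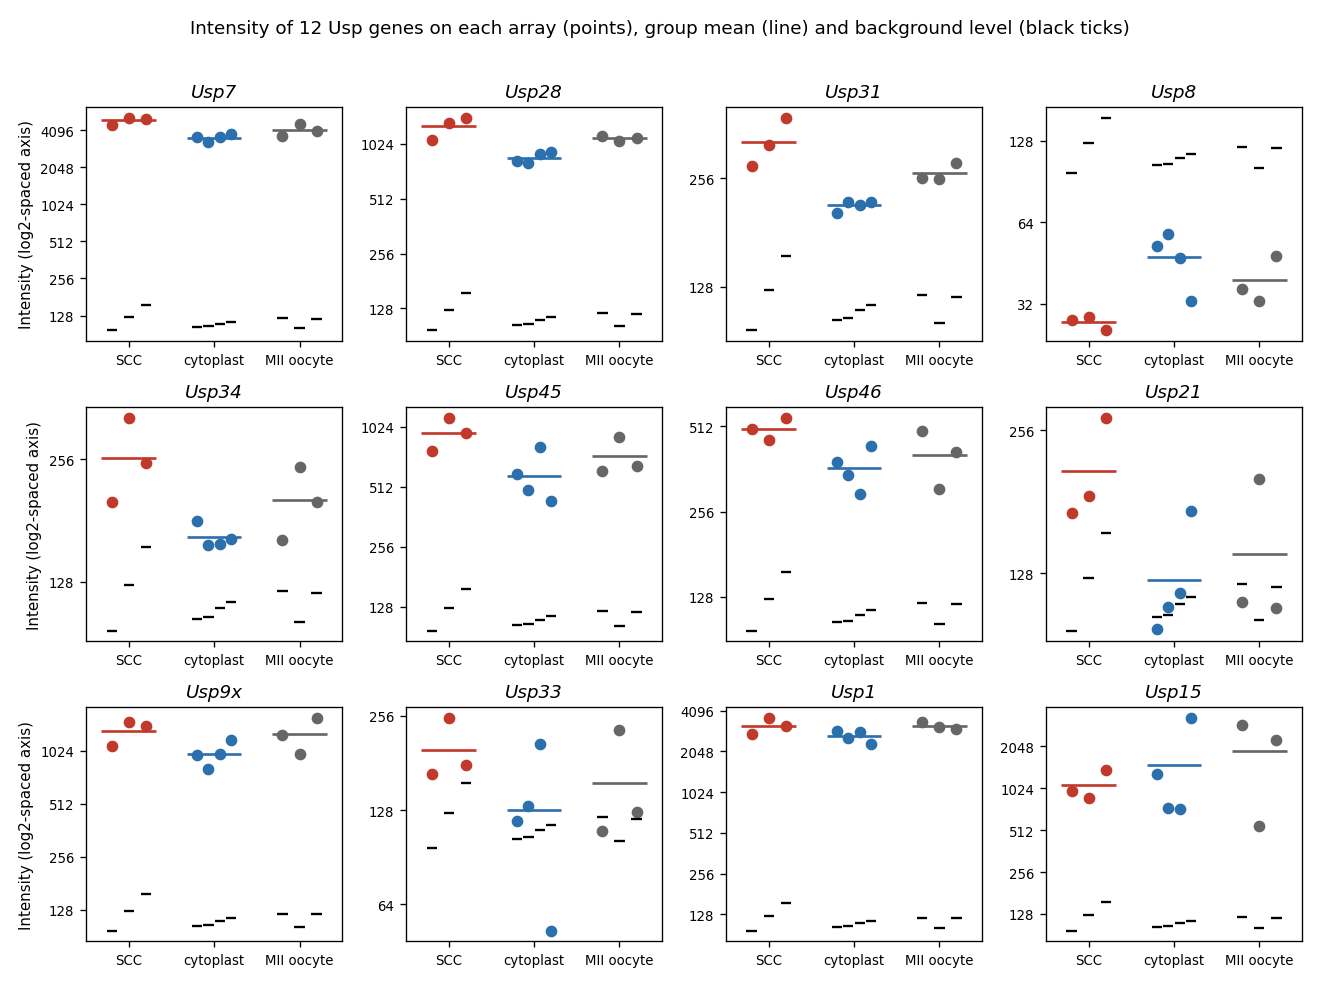
Intensity of 12 Usp genes on each array (y axis, spaced by log2 and different for each gene) in the SCC, the cytoplast and the MII oocyte; points are arrays, coloured lines are group means and black ticks are the background level of each array. The 3 SCC points of Usp7, Usp28, Usp31, Usp34 and Usp46 lie above all 4 cytoplast points, and all points of Usp8 lie below background.

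Usp7 belongs to the enzymes that act on chromatin and nuclear proteins, and is best known for removing ubiquitin from Mdm2 and p53. Its intensity was 4542, 5187 and 5042 on the SCC arrays, 3600.1, 3262, 3621 and 3781 on the cytoplast arrays and 3683, 4595 and 4048 on the MII oocyte arrays. All SCC arrays lay above all cytoplast arrays, and the MII oocyte lay between, overlapping both. Usp7 averaged 4923 ± 338 on SCC arrays, 3566 ± 218 on cytoplast arrays and 4108 ± 459 on MII oocyte arrays (SD, n = 3, 4 and 3). The difference from the cytoplast was 1.38-fold (log2 difference 0.47, SE 0.12, adjusted p = 0.0342), larger than the spread between arrays.

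The other chromatin enzymes did not pass. Of 8 listed, 7 had a probe set and were tested, 1 (Usp7) was higher and none lower, with a median log2 difference of 0.11. Of all genes tested 8.03% were higher, with a median of 0.024, so 1 call in so small a group says little of the group. Usp21, a histone H2A deubiquitinase, had intensities of 171, 186 and 272 on the SCC arrays, 97.6, 109, 116 and 173 on the cytoplast arrays and 112, 202 and 108 on the MII oocyte arrays. Its SCC arrays stood above all cytoplast arrays but cytoplast replicate 4, which overlapped them, and the difference did not pass (log2 difference 0.76, SE 0.26, adjusted p = 0.11). Without cytoplast replicate 4 its log2 difference was 0.94 (adjusted p = 0.045). Usp21 also passed without MII oocyte replicate 3 (adjusted p = 0.0396) and with array weights (adjusted p = 0.0117). With any other array left out it did not pass, and without SCC replicate 3 its log2 difference was 0.56 (adjusted p = 0.408). Nor did it pass after cyclic loess or quantile normalization (adjusted p = 0.236 and 0.288). Usp16 and Usp3, which also act on histone H2A, spanned 116 to 141 and 195 to 245 in the SCC, against 119 to 149 and 152 to 246 in the cytoplast, with log2 differences of -0.04 and 0.06 (adjusted p = 0.891 and 0.898). Usp49, linked to histone H2B, averaged 961 ± 137 on SCC arrays and 849 ± 72.7 on cytoplast arrays (SD, n = 3 and 4; adjusted p = 0.542). Usp22, the deubiquitinase of the SAGA transcription complex, was above background on no array (28.3 to 46.3 in the SCC and 28.7 to 34.3 in the cytoplast), as was its relative Usp27x.

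Among 8 enzymes of DNA damage responses or partners of the activator Wdr48, 1 was higher and none lower in the SCC, with a median log2 difference of 0.12. Over all genes tested 8.03% were higher and the median was 0.024, so this 1 call is no result about the group. Usp28, which steadies Myc and takes part in p53 responses in human cells, had intensities of 1078, 1332 and 1425 on SCC arrays, 819.7, 805, 897 and 919.7 on cytoplast arrays and 1129, 1059.8 and 1097 on MII oocyte arrays. The 3 groups formed steps with little overlap, the SCC highest and the cytoplast lowest. Usp28 averaged 1278 ± 179.7 on SCC arrays, 860.4 ± 56.3 on cytoplast arrays and 1095 ± 34.8 on MII oocyte arrays (SD, n = 3, 4 and 3), and Usp28 was 1.48-fold higher than in the cytoplast (log2 difference 0.56, SE 0.12, adjusted p = 0.0191).

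Usp45, which acts on the repair nuclease protein Ercc1, had 778, 1137 and 956 on SCC arrays, 593, 491, 807 and 435 on cytoplast arrays and 615, 913 and 650.3 on MII oocyte arrays. Cytoplast replicate 3 and MII oocyte replicate 3 lay within the SCC range. The difference from the cytoplast was 1.67-fold and missed the threshold (log2 difference 0.74, SE 0.22, adjusted p = 0.0687). Its second probe set, above background on 8 of 10 arrays, gave 2.14-fold with no overlap and missed it as well (adjusted p = 0.0731).

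Usp46, an enzyme that works with Wdr48 and Wdr20, had 501, 459.8 and 549.9 on SCC arrays, 385, 344, 296 and 436 on cytoplast arrays and 494, 308 and 417 on MII oocyte arrays. The SCC arrays lay just above the highest cytoplast array, and the difference did not pass (log2 difference 0.47, SE 0.18, adjusted p = 0.144). Usp1, the Wdr48-dependent enzyme that removes ubiquitin from Fancd2 and Pcna, had 2762, 3628 and 3139 on SCC arrays, 2884, 2584, 2874 and 2319 on cytoplast arrays and 3365, 3097 and 3002 on MII oocyte arrays. Its SCC and cytoplast arrays overlapped, and the difference between them did not pass (log2 difference 0.25, SE 0.13, adjusted p = 0.313). Usp47, Usp10 and Usp48 had log2 differences of -0.01, -0.12 and -0.32 (adjusted p from 0.518 to 0.978), and Usp12 was above background on no array.

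Of 4 enzymes tied to mitosis and the centrosome, 3 were tested and none passed. All 3 had positive log2 differences, with a median of 0.44. Positive differences were also found for 6864 of all 12710 genes tested. They were found for 77.0% of the 3547 genes above background on all arrays (median 0.26), so 3 positive members do not set this group apart. Usp9x, a large enzyme that acts on survivin in human cells, had 1091, 1497 and 1417 on SCC arrays, 969.6, 812, 985 and 1179 on cytoplast arrays and 1262, 980.2 and 1576 on MII oocyte arrays by its chosen probe set. SCC replicate 1 lay below cytoplast replicate 4, and the difference did not pass (log2 difference 0.44, SE 0.18, adjusted p = 0.204). Usp33, which acts on the centriole protein Cp110 in human cells, had 167, 252 and 178 on SCC arrays, 118, 132, 208 and 52.8 on cytoplast arrays and 110.0, 231 and 127 on MII oocyte arrays. Cytoplast replicate 3 lay within the SCC range and the other cytoplast arrays lay below it, with replicate 4 below background (log2 difference 0.78, SE 0.39, adjusted p = 0.304). Usp37, which protects cyclin A in human cells, had a log2 difference of 0.23 (adjusted p = 0.72). Usp44, which opposes Cdc20 activation at the spindle checkpoint in human cells, was not tested, with intensities of 7.5 to 8.93 on SCC arrays, 7.87 to 9.53 on cytoplast arrays and 8.5 to 9.25 on MII oocyte arrays.

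The 3 enzymes of free ubiquitin chains and the proteasome did not pass. Usp14, which sits on the proteasome, had 246, 283 and 246 on SCC arrays, 227, 198, 247 and 289 on cytoplast arrays and 249, 223 and 256 on MII oocyte arrays, with full overlap of the groups (log2 difference 0.11, SE 0.14, adjusted p = 0.721). Usp5, which takes apart unanchored chains, and its relative Usp13 were above background on no array.

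Among 5 enzymes of membrane traffic and organelles, 1 was lower in the SCC and none higher. Of all genes tested 0.275% were lower and 8.03% higher, and the share in this group rests on 1 dim gene. Usp8, which acts on receptors at endosomes, had 27.9, 28.6 and 25.5 on SCC arrays, 52.3, 58, 47.4 and 32.7 on cytoplast arrays and 36.3, 32.7 and 48.1 on MII oocyte arrays. The SCC arrays lay below all others, but every array was below the background level, so no fold is given (adjusted p = 0.0357). Its adjusted p was 0.0733 after cyclic loess, 0.0689 after quantile normalization, 0.0548 with 16 added before log2 and 0.119 with its probe sets averaged. Usp30, anchored in the outer mitochondrial membrane, had 1211, 1476 and 1429 on SCC arrays, 1613, 1537, 1629 and 1339.7 on cytoplast arrays and 1925, 1618 and 1502 on MII oocyte arrays. Its SCC and cytoplast arrays overlapped (log2 difference -0.16, SE 0.13, adjusted p = 0.571), as did those of Usp19, an enzyme of the endoplasmic reticulum (log2 difference 0.20, SE 0.13, adjusted p = 0.453). Usp32 had a log2 difference of 0.31 (adjusted p = 0.46), and Usp20 was above background on no array.

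Of the 3 RNA-related and nucleolar members none passed. Usp39, a splicing protein that lacks the catalytic cysteine, averaged 743 ± 72.1 on SCC arrays and 852 ± 215 on cytoplast arrays (SD, n = 3 and 4; log2 difference -0.17, adjusted p = 0.772). Usp42 had a log2 difference of 0.18 (adjusted p = 0.549), and Usp36 was above background on no array.

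Among members outside these groups, Usp31 had the smallest adjusted p of the family. Its intensity was 277, 316 and 377 on SCC arrays, 206, 220.1, 215 and 219 on cytoplast arrays and 256, 255 and 282 on MII oocyte arrays. The cytoplast arrays were tightly grouped and below every other array. Usp31 averaged 323 ± 50.2 on SCC arrays, 215 ± 6.65 on cytoplast arrays and 264 ± 15.6 on MII oocyte arrays (SD, n = 3, 4 and 3), and Usp31 was 1.49-fold higher in the SCC (log2 difference 0.58, SE 0.12, adjusted p = 0.0174). A dimmer probe set of the same gene, above background on 7 of 10 arrays, had a log2 difference of -0.10 (adjusted p = 0.773), so the rise was seen with 1 probe set only.

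Usp34, which steadies Axin in human cells, had 201, 324 and 251 on SCC arrays, 181, 158, 158 and 163 on cytoplast arrays and 162, 245 and 202 on MII oocyte arrays. All SCC arrays lay above all cytoplast arrays and the difference just missed the threshold (log2 difference 0.62, SE 0.18, adjusted p = 0.0562). Usp6nl, the Rab regulator, had 167, 213 and 237 in the SCC and 167, 151, 160.4 and 145 in the cytoplast, with SCC replicate 1 and cytoplast replicate 1 nearly equal (log2 difference 0.39, SE 0.14, adjusted p = 0.137). Usp54 had 181, 179 and 178 in the SCC and 228, 171, 196 and 229 in the cytoplast, and did not pass (log2 difference -0.19, SE 0.17, adjusted p = 0.611).

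Usp15, Usp2 and Usp39 varied more between arrays of 1 group than between groups. Usp15, an enzyme of TGF-beta signalling in human cells, had 971, 873 and 1382 on SCC arrays, 1286, 741, 731 and 3268 on cytoplast arrays and 2914, 546 and 2256 on MII oocyte arrays (log2 difference -0.22, SE 0.59, adjusted p = 0.893). Cytoplast replicate 4 and MII oocyte replicates 2 and 4 were its brightest arrays, and these, with SCC replicate 3, are also the 4 arrays with the brightest hybridisation controls. Usp2 had 500.4, 578 and 679.6 on SCC arrays, 605, 462, 445 and 1179.8 on cytoplast arrays and 956, 481 and 737 on MII oocyte arrays, again highest on the same 3 arrays. The chosen probe sets of Usp14, Usp15 and Usp39 are of the platform's class with probes that may bind other transcripts, and those of Usp7, Usp38, Usp45 and Usp46os2 are of the class shared between transcripts.

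**Figure D2:**
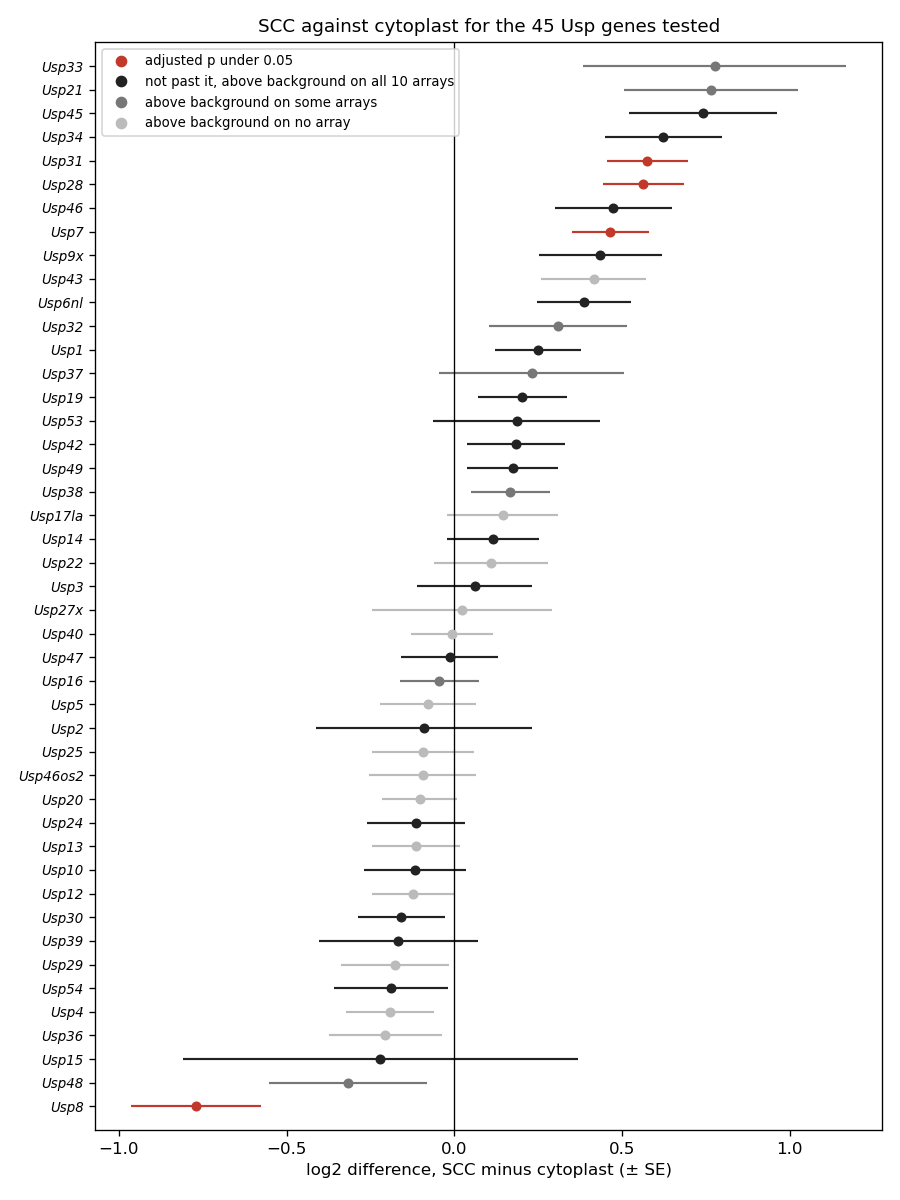
Log2 difference between the SCC and the cytoplast, with its SE from the limma fit over all 10 arrays, for the 45 Usp genes tested, in order of size; red marks an adjusted p under 0.05 and greys mark how many arrays were above background. Usp31, Usp28 and Usp7 are red on the right and Usp8 on the left, where its point has no measured size because all its arrays were below background.

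The direction of some members depended on how the arrays were scaled against each other. Over the 23 members above background on all arrays, 15 had a positive log2 difference as deposited (median 0.18), 9 after cyclic loess (median -0.076) and 8 after quantile normalization (median -0.13). All 3547 genes that met the same condition had medians of 0.26, 0.0088 and -0.0081 under the same scalings. As deposited, 13.04% of the 23 members and 19.2% of the 3547 genes were higher in the SCC, and after cyclic loess and quantile normalization none of the 23 was, against 4.09% and 3.41% of the 3547. Usp45, Usp34, Usp31, Usp28, Usp46, Usp7, Usp9x and Usp6nl had a positive difference under all 3. Usp1, Usp3, Usp14, Usp19, Usp42 and Usp49 turned negative under both scalings, Usp53 did under quantile normalization, and the other 8 were negative throughout. Usp31 was at 0.36 after cyclic loess and 0.30 after quantile normalization (adjusted p = 0.0829 and 0.12). Usp28 was at 0.30 and 0.26 (adjusted p = 0.138 and 0.209), and Usp7 at 0.15 and 0.21 (adjusted p = 0.643 and 0.477).

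**Figure D3:**
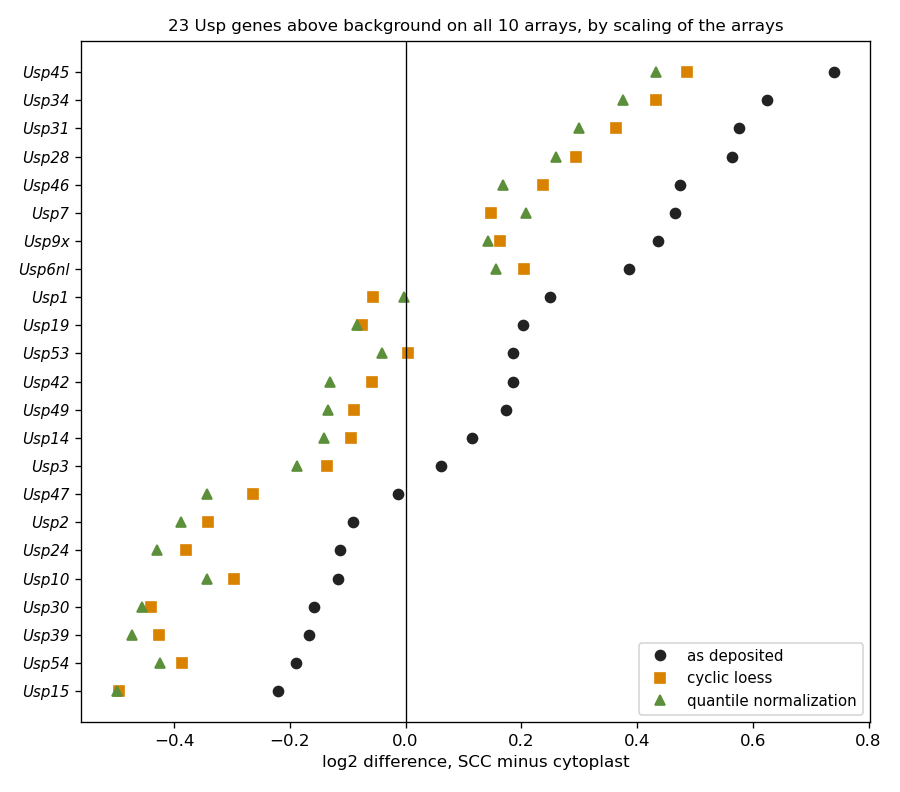
Log2 difference between the SCC and the cytoplast for the 23 Usp genes above background on all 10 arrays, with the arrays as deposited (circles), after cyclic loess (squares) and after quantile normalization (triangles). The 8 genes from Usp6nl upwards lie right of 0 in all 3, and every gene moves left under both scalings.

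The calls also hung on single arrays. Leaving out SCC replicate 2, SCC replicate 3 or cytoplast replicate 1 left 0 rises by limma, and leaving out cytoplast replicate 2 left Usp31 alone. Over all 23737 probe sets tested the share higher in the SCC, 6.74% with all arrays, was 1.14%, 1.02% and 2.44% without those first 3 arrays in turn, and 2.86% without cytoplast replicate 2, so calls were lost across the whole array. Without cytoplast replicate 3, Usp7 was lost and Usp45 gained, without cytoplast replicate 4 Usp21 was gained, and without MII oocyte replicate 2 Usp34 was. Without SCC replicate 1 there were 5 (Usp28, Usp31, Usp34, Usp6nl and Usp7), and without MII oocyte replicate 3 there were 6 (Usp21, Usp28, Usp31, Usp34, Usp45 and Usp7). Over all probe sets tested the share higher rose as well, to 8.19% and 8.61%. It was 5.91% and 6.58% without cytoplast replicates 3 and 4 and 6.79% without MII oocyte replicate 2. Usp8 was not called without any 1 of cytoplast replicates 1, 2 and 3 or of the SCC arrays. Among the 6 arrays with dimmer hybridisation controls (2 of the SCC, 3 of the cytoplast and 1 of the MII oocyte), Usp28, Usp31 and Usp7 were higher in the SCC by 0.51, 0.47 and 0.48 on the log2 scale (adjusted p = 0.0453, 0.0467 and 0.0482). Among the 4 brighter ones, SCC replicate 3 stood above cytoplast replicate 4 by 0.63, 0.78 and 0.42 on the log2 scale, from 1 array each, for the same genes.

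Where a gene had several well measured probe sets, they did not always share a direction. 7 members had 2 or 3 probe sets above background on all arrays, and in 4 of them (Usp1, Usp7, Usp9x and Usp15) all gave 1 sign. Usp7 had 3 such probe sets with log2 differences of 0.47, 0.38 and 0.53 (adjusted p = 0.0342, 0.0976 and 0.527). The third of these was uneven in the SCC, at 322, 348 and 1233, against 368, 303, 334 and 447 in the cytoplast.

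Usp9x had 3 as well, and 1 that was not the chosen probe set passed. It is singled out after its values were seen. Of the 97 Usp probe sets tested 5 passed in either direction, against 1599 higher and 65 lower of all 23737. This probe set of Usp9x gave 380.4, 413 and 608 on SCC arrays, 209, 201, 203 and 258 on cytoplast arrays and 374, 233 and 356 on MII oocyte arrays. All SCC arrays lay above all cytoplast arrays, and the difference was 2.11-fold (log2 difference 1.08, SE 0.20, adjusted p = 0.012). It passed after cyclic loess (log2 0.86, adjusted p = 0.0219) and quantile normalization (log2 0.80, adjusted p = 0.0279) as well, unlike the chosen probe sets of Usp7, Usp28 and Usp31. Of all probe sets tested 2.13% and 1.77% were higher in the SCC under these scalings. The other probe sets of Usp9x had 0.44 (adjusted p = 0.204) and 0.51 (adjusted p = 0.251), so the size of the difference depended on the probe set. For Usp30, Usp24 and Usp19 the probe sets differed in sign and none passed.

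**Figure D4:**
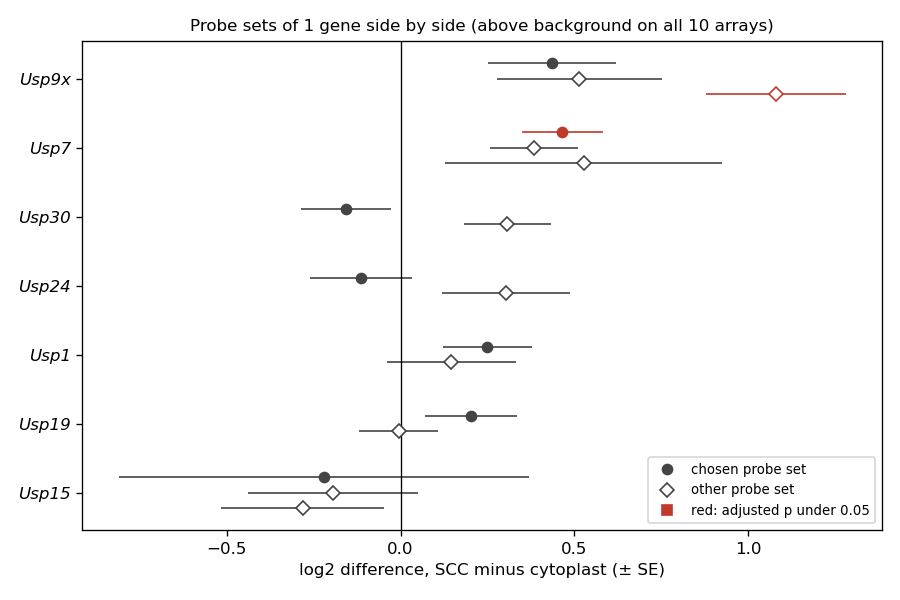
Log2 difference between the SCC and the cytoplast, with SE, for each probe set of the 7 Usp genes that have 2 or 3 probe sets above background on all 10 arrays; filled circles are the chosen probe sets, open diamonds the others, and red marks an adjusted p under 0.05. The probe sets of Usp9x and Usp7 all lie right of 0, and those of Usp30 and Usp24 lie on both sides.

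Against the intact MII oocyte no Usp gene passed in the SCC, by limma, in either direction (0 of 45 each way, against 0.0472% of all genes higher and 0% lower). At an unadjusted p under 0.05 there were 3, Usp21, Usp54 and Usp8 (6.67%, against 13.3% of all genes). The median log2 difference was 0.0026, and 0.00085 over all genes tested. 4 members lay below all MII oocyte arrays, Usp16, Usp30, Usp54 and Usp8 (8.89%, against 5.27% of all genes), and none lay above, against 9.14% of all genes. Usp54 had 181, 179 and 178 in the SCC and 357, 251 and 215 in the MII oocyte, without overlap (log2 difference -0.58, SE 0.18, adjusted p = 0.213). Usp21 had the largest positive difference (log2 difference 0.61, SE 0.28, adjusted p = 0.412), but MII oocyte replicate 3 lay within its SCC range.

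Between the cytoplast and the MII oocyte no member passed by limma (0 of 45 each way, against 0% of all genes higher and 0% lower). At an unadjusted p under 0.05 there were 3, Usp28, Usp31 and Usp54 (6.67%, against 4.68% of all genes). 33 members had a negative and 12 a positive difference, with a median of -0.14 against -0.060 over all genes tested. Usp1, Usp28, Usp31 and Usp6nl lay below all MII oocyte arrays in the cytoplast (8.89%, against 4.5% of all genes), with log2 differences of -0.25, -0.35, -0.30 and -0.30 (adjusted p = 0.926 for each). These comparisons share arrays, so their differences are not independent of each other. Of the 23 members above background on all arrays, the MII oocyte mean lay between the other means for 14, among them Usp7, Usp28, Usp31, Usp34, Usp45 and Usp9x, and above both for 9. This was not counted over all genes, so it is not read as a trait of the members.

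Deubiquitinases of other families were read in the same way. Of 42 listed genes, which include the SUMO proteases Senp1 and Uspl1, 30 were tested. Compared with the cytoplast, 3 were higher in the SCC and 1 was lower, with a median log2 difference of 0.14. Of all 12710 genes tested, 8.03% were higher and 0.275% lower. Otud6b, of the ovarian tumour (OTU) family, had 275, 369 and 375 in the SCC and 167, 177, 215 and 193 in the cytoplast, 1.8-fold higher without overlap (log2 difference 0.85, SE 0.14, adjusted p = 0.00886). Otud1, of the same family, was 1.64-fold higher (log2 difference 0.71, SE 0.19, adjusted p = 0.046). Uchl1, a ubiquitin C-terminal hydrolase abundant in oocytes and neurons, had 114, 126 and 143 in the SCC and 78.6, 90, 72.8 and 62 in the cytoplast. Its arrays did not overlap (adjusted p = 0.0224). No cytoplast array was above background and SCC replicate 3 was below it too, so no fold is given. Otub2, also of the OTU family, was lower, with 90.7, 113 and 90.5 in the SCC, below background on each array. It had 155, 131, 128 and 159 in the cytoplast, at least 1.15-fold higher there (adjusted p = 0.0491). For this bound each SCC array was set at the higher of its own signal and the background level of that array. Otub2 passed after cyclic loess and quantile normalization as well (adjusted p = 0.0226 and 0.0258). Otud6b passed after cyclic loess (log2 difference 0.64, adjusted p = 0.0365) and not after quantile normalization (log2 difference 0.58, adjusted p = 0.0536). Uchl1 and Otud1 passed after neither (adjusted p = 0.0645 and 0.103 after cyclic loess, 0.0793 and 0.143 after quantile normalization).

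Of 10 genes for partners of Usp proteins, 7 were tested. Against the cytoplast 2 were higher in the SCC and 0 lower, where 8.03% of all genes tested were higher. The differences of the 7 went both ways, 3 positive and 4 negative, with a median log2 difference of -0.24 and a lowest of -0.98. Both higher genes are of the SAGA module in which Usp22 works. Usp22 itself was above background on no array, and the module was not tested as a set. Eny2, a small scaffold of that module, had 1035, 1219.7 and 1718 on SCC arrays, 545, 661, 789.9 and 526 on cytoplast arrays and 698, 1074 and 705 on MII oocyte arrays, 2.08-fold higher than in the cytoplast (log2 difference 1.06, SE 0.22, adjusted p = 0.016). Atxn7, its link to the rest of SAGA, had 173, 222 and 325 in the SCC and 98.9, 104, 128 and 77.9 in the cytoplast, where 1 array was above background (log2 difference 1.20, SE 0.31, adjusted p = 0.039). Neither passed after cyclic loess, where Eny2 had a log2 difference of 0.80 (adjusted p = 0.107) and Atxn7 of 1.05 (adjusted p = 0.105). Wdr48, the activator of Usp1, Usp12 and Usp46, had a negative difference that did not pass, with 397, 411 and 359 on SCC arrays, 625, 495, 492 and 698 on cytoplast arrays and 926, 479 and 611 on MII oocyte arrays (log2 difference -0.56, SE 0.21, adjusted p = 0.145). All its SCC arrays lay below all cytoplast arrays. Of the ubiquitin precursor and activating enzyme genes only Uba6, an activating enzyme, had a probe set of its own, with 226, 346 and 328 in the SCC and 130.0, 116, 129 and 149.8 in the cytoplast (log2 difference 1.17, SE 0.26, adjusted p = 0.0213). After cyclic loess its log2 difference was 0.99 (adjusted p = 0.0661). No gene of these lists passed in the SCC or in the cytoplast when set against the MII oocyte.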

How the data were processed

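The values as deposited are linear-scale intensities, 45101 probe sets by 10 arrays; RMA is named in the submitters' processing notes, with its version and settings not given in the sources used here. Per the labels' protocols, each sample (at most 50 ng of total RNA) was amplified in 2 rounds before 10 µg of cRNA were hybridised, so values are relative amounts within a sample. Arrays were grouped by their titles, and log2 was taken. Genes were named from the platform annotation (34945 probe sets with 1 gene, 932 with several, 9160 with none, 64 controls); 50 of 51 members matched RefSeq of GRCm38.p6 by gene ID. 4 probe sets naming a member beside another gene were left out.

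Probe sets above the array median on at least 3 arrays (23737) were tested across all genes with limma 3.58.1 (R 4.3.3), fitting a mean for each group, and Benjamini-Hochberg adjustment over the 23737 at 0.05; the code was tested on simulated data. Shares of all genes use the same choice of probe set (12710 tested). The members and lists were chosen with earlier results of these data known, so no adjustment over a list alone is given. Named genes were those past the threshold, the 10 with the highest MII oocyte mean intensity (a choice of bright probe sets, not an order of expression), the 8 largest rises and falls of those above background on all arrays of a group, and 19 set by name. Alternatives were other scalings, filters, offsets, fits, blocks, probe set means and leaving out each array. Sequences of the transcripts were not used here.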

Additional observations from a re-analysis of the deposited data

Results flagged for a closer look

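Usp44 stood apart on 1 array, at 9.53 intensity units in cytoplast replicate 1, against 7.87 to 7.97 in the other cytoplast arrays, a gap wider than Dixon's 95% limit for 4 values. All these values were below background. It was 1 of 35 groups tested, and chance flags about 1 group in 20.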

How the results depend on the processing

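Against the cytoplast, the number of Usp genes higher in the SCC, 3 with the arrays as deposited, was 0 after cyclic loess and after quantile normalization, 1 with the probe sets of a gene averaged, 5 with a filter at the 75th percentile, 8 with array weights, and 6 with the hybridisation controls as a covariate or as a block. Over all probe sets tested, the share higher was 6.74% as deposited, 2.13%, 1.77%, 7.92% (of genes), 14.4%, 12.8%, 11.7% and 10.6% under these settings in the same order. The number of higher Usp genes ran from 0 to 6 when 1 array was left out. The count of lower genes, 1, was 0 under cyclic loess, quantile normalization, an offset of 16 and averaged probe sets, and 0 to 1 with 1 array left out. The median of this comparison, 0.061, was -0.060 under cyclic loess and -0.082 under quantile normalization. The median of the cytoplast against the MII oocyte, -0.14, was -0.019 under cyclic loess, -0.0089 under quantile normalization and -0.0049 on the 6 arrays with dimmer hybridisation controls, where the MII oocyte is 1 array, replicate 3, assumed to vary like the other groups. That median ran from -0.16 to -0.054 with 1 array left out. On those 6 arrays 1 gene, Usp21, passed as lower in the cytoplast than on that lone array, which reads 202, against 112 and 108 on the other MII oocyte arrays. Apart from the scalings as such, the cause was not tested. With the replicate number as a block 2 genes were higher (Usp28 and Usp31), and Usp7 was not (adjusted p = 0.0563). Same-numbered samples did not all deviate together (correlations -0.30 to 0.61 over 8 pairs), so the numbers are not taken to pair them. Usp7 was also lost with a trended, robust fit (adjusted p = 0.0614). No called gene changed sign under any alternative; of 665 values for the named genes in the SCC against the cytoplast, 31 uncalled ones did. Dim probe sets limit what can be said of the 21 genes above background on no array.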
